A study of Mus musculus with 7 samples.

Results

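Hepatic stellate cells lie in the narrow space between the liver's sinusoids and its hepatocytes. At rest they store retinyl esters, the liver's reserve of vitamin A. When activated they lose that store, turn into contractile myofibroblasts and secrete fibrillar collagen, which makes them the main source of scar matrix in the injured liver. The genes described here are 40 transcripts of resting and activated stellate cells and of the extracellular matrix, chosen by symbol: collagens, laminins, proteoglycans and glycoproteins, stellate cell genes, the growth factor receptors and cytoskeletal proteins of activated cells, and enzymes and inhibitors that crosslink or turn over matrix. All 40 were found among the 23366 genes of each table.

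RNA was sequenced from whole livers of mice of the inbred strain C57BL/6 at 21 months of age (3 samples) and at 3 months (4 samples), with no genetic change or treatment given in the labels for either age. Nothing in the labels says whether each sample is a separate animal, so the p-values reflect how far these particular samples spread, and that spread may be technical. Sex, diet and time of sampling are also not labelled. In whole liver, fewer cells of a type and less RNA per cell cannot be told apart.

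Libraries held 6882935 to 10458583 expected counts at 21 months and 4724687 to 11143125 at 3 months. A floor of 3 counts corresponds to 0.296 to 0.419 CPM (counts per 1e+06, scaled by TMM between libraries) at 21 months and 0.257 to 0.607 CPM at 3 months. The tissue label was borne out by its defining genes: all 17 hepatocyte markers examined passed the filter on low counts, and albumin (Alb) alone averaged 53929 TPM at 21 months and 34963 TPM at 3 months. TPM (transcripts per 1e+06) is scaled for transcript length and is used below to set genes side by side. Replicate 2 at 21 months stood apart for the genes described here. It had the highest CPM of its age for 35 of the 37 members that could be tested, against 35.0% of all genes tested. Replicate 1 at 21 months had the lowest for 23 of them, against 38.2% of all genes. Summed over the members, the 21-month libraries held 1114, 1681 and 1359 TPM in replicate order, and the 3-month libraries 1165, 1362, 1191 and 1185 TPM. Summed markers of other liver cells had the same order at 21 months, replicate 2 highest and replicate 1 lowest, in 6 lists: endothelial cells, macrophages, portal fibroblasts and mesothelium, vascular smooth muscle, lymphocytes and bile duct cells. Endothelial markers summed to 225, 464 and 379 TPM at 21 months, against 308, 390, 353 and 228 TPM at 3 months. Macrophage markers summed to 314, 941 and 686 TPM at 21 months, against 476, 742, 545 and 427 TPM at 3 months. Their part in the results below was not tested. Values without replicate 2 are given for members where a call rests on it, and are not given for genes outside the members.

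Levels spanned more than 3 orders of magnitude on the TPM scale. Col18a1, the collagen whose fragment is endostatin, and Fn1, fibronectin, headed the list; hepatocytes are a known source of both. Col18a1 averaged 411 ± 56.7 TPM at 21 months and 413 ± 39.2 TPM at 3 months (SD, n = 3 and 4, as throughout). Fn1 averaged 394 ± 89.9 TPM at 21 months and 375 ± 21.9 TPM at 3 months. The 2 genes therefore lay within their spread of each other at each age, and together made up 55.5% to 60.5% of the members' summed TPM at 21 months and 61.4% to 68.7% at 3 months. Next came Ecm1, a secreted matrix glycoprotein, then the small proteoglycans Dcn and Bgn, and then Sparc and Colec11. The classical scar collagens were far lower. Col3a1 averaged 9.58 ± 2.68 TPM at 21 months and 12.4 ± 4.80 TPM at 3 months, and Col1a1 averaged 3.64 ± 2.43 TPM and 4.71 ± 2.58 TPM at the same ages. At the bottom, Lox and Timp1 had 4 and 2 counts over the 3 libraries at 21 months, against 5 and 1 over the 4 libraries at 3 months.

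**Figure D1:**
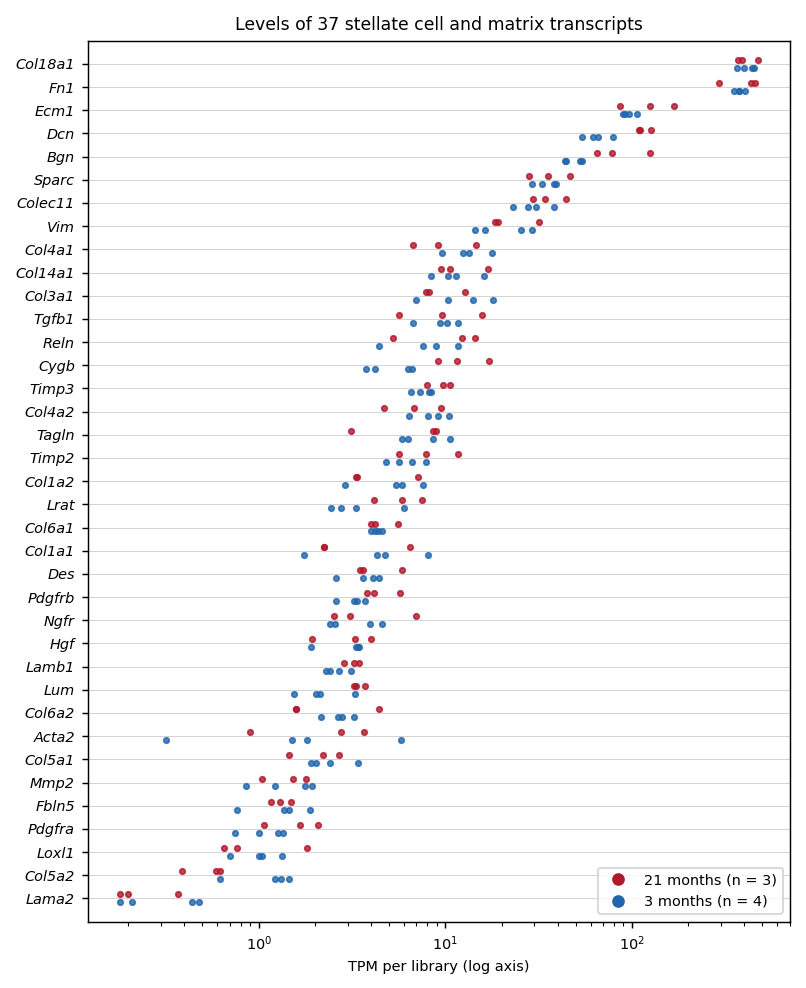
TPM of the 37 tested members in each library on a log axis, ordered by mean level, with 21 months (n = 3, red) above 3 months (n = 4, blue). Col18a1 and Fn1 stand far above the rest, Dcn and Bgn are shifted right at 21 months, and for most genes the ages interleave.

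Of the 37 members tested, 3 rose at 21 months (Dcn, Bgn and Cygb) and 1 fell (Col5a2) with edgeR's quasi-likelihood test at a Benjamini-Hochberg adjusted p under 0.05. That share of 10.8% stands beside 11.3% of the 11251 genes tested, so the members were called about as often as genes in general; among all genes, 5.47% were called higher and 5.86% lower. DESeq2 and limma voom each called the same 4 members. The median log2 fold change (21 months minus 3 months) was -0.05 over the tested members and -0.00 over all genes, with 15 members above 0 and 22 below. The ages did not overlap for 4 members (Dcn, Bgn, Cygb and Pdgfrb, all higher at 21 months), against 24.2% of all genes in either direction, 11.3% with 21 months higher and 12.8% with 21 months lower. Fbln1, Lox and Timp1 had too few counts to be tested.

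**Figure D2:**
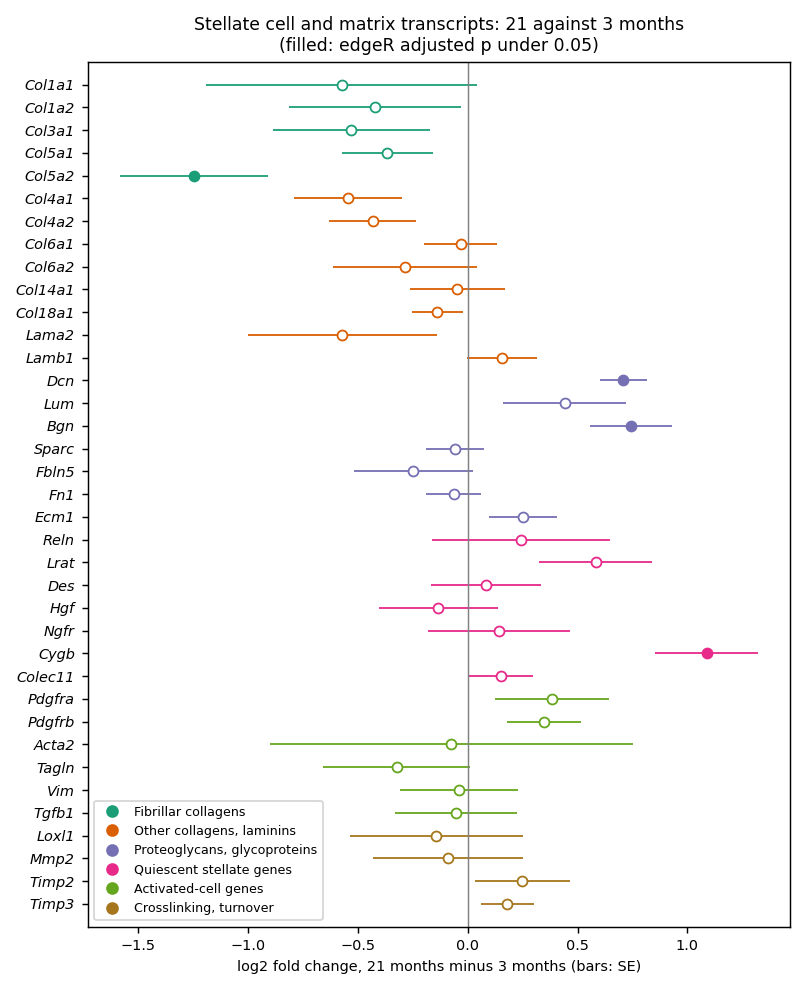
log2 fold change (21 months minus 3 months) of each tested member by role, with bars of 1 SE and filled points at an edgeR adjusted p under 0.05. The 5 fibrillar collagens lie left of 0, 6 of the 7 quiescent stellate cell genes lie right of it, and 4 points are filled: Dcn, Bgn, Cygb and Col5a2.

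Fibrillar collagens, the rope-like collagens of scar, were lower in all 5 estimates, and 1 of the 5 passed the test (20%, against 11.3% of all genes). Their median log2 fold change was -0.53, against -0.00 for all genes. Col5a2, a chain of collagen V, which nucleates and limits the width of collagen I fibrils, had 2.07, 1.82 and 1.19 CPM at 21 months, against 5.29, 4.204, 2.02 and 4.54 CPM at 3 months. Replicate 3 at 3 months, at 2.02 CPM, lay below replicate 1 at 21 months, so the ages overlapped by that library. The fall was 2.37-fold (log2 fold change -1.25, SE 0.34, 95% interval -1.97 to -0.53, edgeR adjusted p = 0.0279). It rests on 44 counts at 21 months and 116 at 3 months. Without replicate 3 at 21 months the log2 fold change was -1.03, and without replicate 1, 2 or 4 at 3 months it was -1.12, -1.22 and -1.19; the call was lost in each (adjusted p = 0.131, 0.0759, 0.0739 and 0.0763). It was also lost with the shortfall of effective length (gene length minus effective length, per library) as a covariate (-0.89, edgeR adjusted p = 0.301). That covariate itself differed in part with age (values below). On the log2(TPM + 0.5) scale the call was lost too (-0.65, limma adjusted p = 0.112).

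The other chains did not pass the test, and their levels varied widely within each age. Col1a1, the major chain of collagen I, had 5.32, 14.0 and 4.88 CPM at 21 months, against 20.6, 9.78, 4.05 and 12.5 CPM at 3 months. Col1a2, its partner chain, had 8.67, 17.04 and 7.97 CPM at 21 months, against 21.4, 14.7, 7.28 and 15.7 CPM at 3 months. Col3a1, which forms the fine reticular fibres of the liver, had 23.1, 32.5 and 20.3 CPM at 21 months, against 55.1, 38.2, 19.0 and 32.5 CPM at 3 months. These 3 genes were highest in the same libraries, replicate 2 at 21 months and replicate 1 at 3 months, and were lowest in replicate 3 of each age. The log2 fold changes were -0.57 (95% interval -2.10 to 0.95, edgeR adjusted p = 0.626) for Col1a1, -0.42 (-1.35 to 0.50, 0.555) for Col1a2 and -0.53 (-1.39 to 0.33, 0.412) for Col3a1. These intervals hold both a fall of over 2-fold and no change. Col5a1, the second collagen V chain, averaged 8.45 ± 2.14 CPM at 21 months and 10.6 ± 2.26 CPM at 3 months (log2 fold change -0.37, adjusted p = 0.286). The TPM ratio of Col1a1 to Col1a2 was 0.67, 0.90 and 0.67 at 21 months, against 1.06, 0.73, 0.61 and 0.87 at 3 months, and overlapped between ages. With the replicate block and the shortfall of effective length together, a fit added after seeing the data that leaves 1 residual degree of freedom, Col3a1 was called lower (-1.30, adjusted p = 0.0116), and the estimates of Col1a1 and Col1a2 were -1.82 and -1.21 without a call.

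The sum over the 5 fibrillar genes was 15.9, 29.6 and 16.01 TPM at 21 months, against 37.2, 29.1, 14.7 and 23.6 TPM at 3 months. Markers of portal fibroblasts and mesothelium, which also make these collagens, summed to 22.2, 33.2 and 26.6 TPM at 21 months, against 38.3, 29.7, 17.8 and 21.6 TPM at 3 months. Replicate 1 was highest and replicate 3 lowest at 3 months in both sums, and replicate 2 was highest in both at 21 months. Replicate 1 was lowest in the marker sum at 21 months, while replicates 1 and 3 were nearly level in the fibrillar sum (15.9 and 16.01 TPM). Of that marker list, 10 of 18 genes could be tested and 0 were called by edgeR, against 11.3% of all genes. DESeq2 and limma voom also called 0, with 3 at an unadjusted p under 0.05 and 2 called by limma voom with sample weights. Estimates were above 0 for 5 and below 0 for 5, with a median log2 fold change of -0.04. Of its 3 most abundant genes, Dpt, dermatopontin, had 1.97, 3.07 and 1.55 CPM at 21 months, against 8.94, 2.83, 1.01 and 2.60 CPM at 3 months (-0.80, edgeR adjusted p = 0.471). Smoc2, a matrix glycoprotein, averaged 5.32 ± 1.19 CPM at 21 months and 4.09 ± 1.42 CPM at 3 months, and Entpd2, an ectonucleotidase, averaged 3.09 ± 0.402 CPM at 21 months and 2.48 ± 0.343 CPM at 3 months; their estimates were 0.30 and 0.29. The markers' part in the fibrillar values was not tested.

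**Figure D3:**
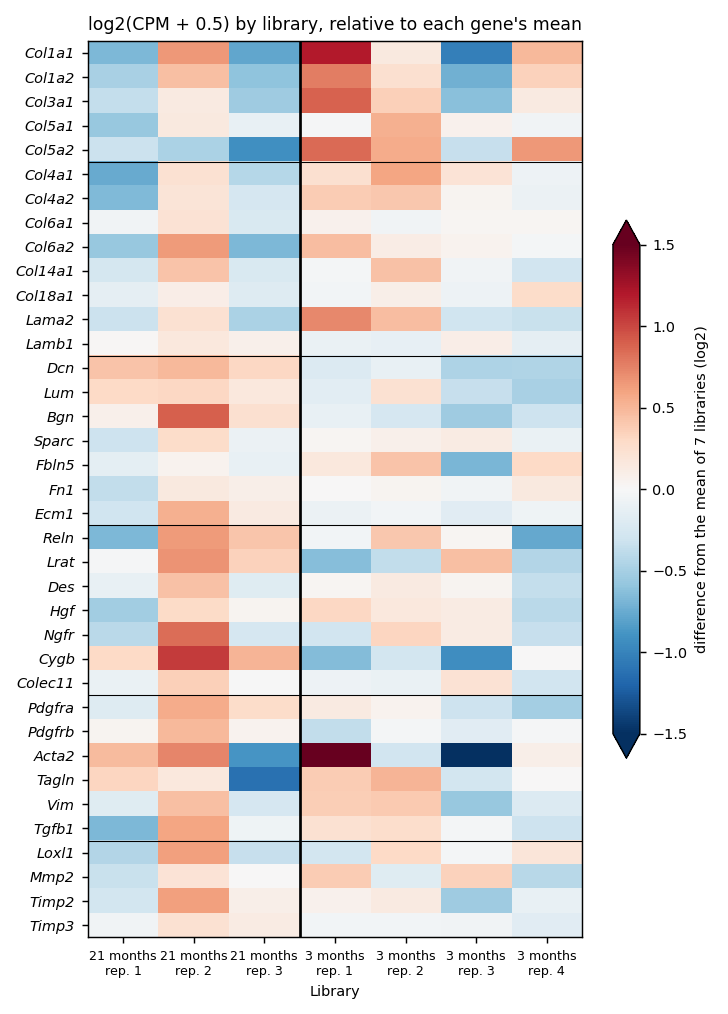
log2(CPM + 0.5) of each tested member in each library minus the gene's mean over the 7 libraries, grouped by role (black lines), with 21-month libraries left of 3-month libraries. Replicate 2 at 21 months is the warmest column of its age; at 3 months, replicate 1 is high and replicate 3 low for Col1a1, Col3a1 and Acta2.

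Of the 8 basement membrane and other non-fibrillar collagens and laminins, 0 passed the edgeR test, against 11.3% of all genes. DESeq2 and limma voom also called 0, and 1 (Col4a2) had an unadjusted p under 0.05. Estimates were below 0 for 7 of the 8, with a median log2 fold change of -0.21. Col4a1 and Col4a2 encode the chains of the network collagen of basement membranes, and in liver are made by endothelial cells as well as stellate cells. Col4a1 had 22.3, 44.4 and 28.2 CPM at 21 months, against 45.1, 57.3, 43.7 and 35.9 CPM at 3 months. Col4a2 had 15.3, 28.1 and 20.5 CPM at 21 months, against 32.1, 32.6, 25.3 and 23.0 CPM at 3 months. In both, replicates 1 and 3 at 21 months lay below every 3-month library, and replicate 2 lay among them. Col4a1 differed by a log2 fold change of -0.55 (SE 0.25, 95% interval -1.11 to 0.02, edgeR adjusted p = 0.202), and Col4a2 by -0.43 (SE 0.20, interval -0.87 to -0.00, adjusted p = 0.188). Neither passed in the reported fit, and both passed when replicate 2 at 21 months was left out. Without that library, Col4a1 fell by 0.85 on the log2 scale (edgeR adjusted p = 0.0109) and Col4a2 fell by 0.66 (adjusted p = 0.0276). With the replicate number as a block, Col4a1 also fell, by 0.66 (adjusted p = 0.00771).

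The pair is known for its shared control region: the genes lie head to head and are read outward on opposite strands. In the RefSeq promoter table (GRCm38.p6, 250 bases before to 50 after each start), the 2 windows share 78 bases, chr8:11312777-11312854, and these are in capitals in the windows shown here to make that arrangement visible. The Col4a1 window is chr8:11312777-11313076 on the minus strand and the Col4a2 window is chr8:11312555-11312854 on the plus strand.
Col4a1: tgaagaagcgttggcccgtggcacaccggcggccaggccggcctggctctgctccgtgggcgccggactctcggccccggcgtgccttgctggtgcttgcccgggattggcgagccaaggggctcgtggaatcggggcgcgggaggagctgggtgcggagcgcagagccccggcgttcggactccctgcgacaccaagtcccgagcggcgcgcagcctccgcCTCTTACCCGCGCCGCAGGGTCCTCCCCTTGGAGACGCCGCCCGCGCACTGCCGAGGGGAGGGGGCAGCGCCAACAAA
Col4a2: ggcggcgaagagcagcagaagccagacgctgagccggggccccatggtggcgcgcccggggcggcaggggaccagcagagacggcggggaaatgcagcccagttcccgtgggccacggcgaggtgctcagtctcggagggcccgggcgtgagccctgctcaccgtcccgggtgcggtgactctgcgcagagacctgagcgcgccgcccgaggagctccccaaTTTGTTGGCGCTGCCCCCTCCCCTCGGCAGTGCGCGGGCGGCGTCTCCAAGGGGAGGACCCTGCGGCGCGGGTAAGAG
The capitals of each line are the reverse complement of the other's. The TPM ratio of Col4a1 to Col4a2 was 1.43 ± 0.10 at 21 months and 1.56 ± 0.16 at 3 months. Its 3 values at 21 months were 1.42, 1.54 and 1.34, within or just under the 3-month range of 1.36 to 1.71, although Col4a1 itself ranged over 22.3 to 44.4 CPM at 21 months and 35.9 to 57.3 CPM at 3 months.

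The remaining 6 genes of this group stayed close between ages or varied too much to tell. Col18a1 had 1051, 1236 and 1016 CPM at 21 months, against 1124, 1228, 1095 and 1397 CPM at 3 months, and its log2 fold change was -0.14 (95% interval -0.38 to 0.11, edgeR adjusted p = 0.483). Its interval excludes a fall of more than 0.38 on the log2 scale at this confidence. Col6a1, a chain of the microfibrillar collagen VI, averaged 8.65 ± 1.43 CPM at 21 months and 8.84 ± 0.305 CPM at 3 months (log2 fold change -0.03, adjusted p = 0.933), and Col6a2 averaged 4.41 ± 2.71 CPM and 5.26 ± 0.900 CPM at those ages (-0.29, 0.632). Col14a1, which sits along collagen fibrils, averaged 37.8 ± 11.1 CPM at 21 months and 38.4 ± 8.62 CPM at 3 months (-0.05, 0.926). The laminin chain Lama2, at 1.16 ± 0.449 CPM at 21 months and 1.65 ± 0.786 CPM at 3 months, was too sparse for a firm estimate (-0.57, SE 0.43, 0.437). Lamb1, a beta chain of laminin, was the 1 gene of the group with a positive estimate, at 8.76 ± 0.426 CPM at 21 months and 7.90 ± 0.675 CPM at 3 months (0.15, 0.587).

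Matrix proteoglycans and glycoproteins held 2 of the 3 members that rose. Of the 8, 7 were tested, 2 were called higher and 0 lower (28.6%, against 11.3% of all genes), with a median log2 fold change of 0.25. Dcn, decorin, is a small leucine-rich proteoglycan that decorates collagen fibrils and binds TGF-beta. It had 102, 106 and 93.8 CPM at 21 months, against 65.5, 70.4, 55.0 and 55.2 CPM at 3 months, with no overlap. Dcn was 1.63-fold higher at 21 months (log2 fold change 0.71, SE 0.11, 95% interval 0.48 to 0.94, edgeR adjusted p = 0.00105). Its spread within an age, 6.43 CPM at 21 months and 7.67 CPM at 3 months (SD), was small beside the difference, and leaving out any 1 library kept the call. Its level rose to 115 ± 9.08 TPM at 21 months, against 65.1 ± 10.5 TPM at 3 months. It was also the 1 member whose call held when the shortfall of effective length, which was smallest in replicate 3 at 21 months, entered the model (log2 fold change 0.84, adjusted p = 0.00961). With the replicate block and that covariate together the call was lost (0.59, adjusted p = 0.199).

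Bgn, biglycan, is the closest relative of decorin in the matrix and can act as a danger signal when released. It had 77.3, 137 and 86.6 CPM at 21 months, against 67.7, 61.6, 50.4 and 58.9 CPM at 3 months. Every 21-month library lay above every 3-month library, and replicate 2 lay far above the others. Bgn was 1.67-fold higher at 21 months (log2 fold change 0.74, SE 0.19, 95% interval 0.32 to 1.16, edgeR adjusted p = 0.0328). Without replicate 2 at 21 months the log2 fold change was 0.47 (adjusted p = 0.0242). Without replicate 2, 3 or 4 at 3 months the log2 fold changes were 0.76, 0.67 and 0.73, and the call was lost (adjusted p = 0.0751, 0.0681 and 0.0891). It was also lost with the shortfall of effective length as a covariate (0.79, adjusted p = 0.167).

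The start of Bgn is shown because it is the 1 called member with a window in the promoter table; it lies at chrX:73483351-73483650 on the plus strand (RefSeq, GRCm38.p6). Capitals mark GC boxes, GGGCGG on either strand, of which it holds 3, the last 2 overlapping.
Bgn: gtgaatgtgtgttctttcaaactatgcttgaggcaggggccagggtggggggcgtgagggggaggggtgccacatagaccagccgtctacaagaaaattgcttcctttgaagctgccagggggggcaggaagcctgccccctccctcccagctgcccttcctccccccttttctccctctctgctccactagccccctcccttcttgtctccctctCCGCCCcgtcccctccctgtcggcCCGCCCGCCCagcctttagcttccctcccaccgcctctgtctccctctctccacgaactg
It holds neither CCAAT nor TATAAA, and no CAGAC (the core letters of SMAD sites, the DNA contacts of TGF-beta signalling) on either strand, and 63.7% of its bases are G or C. Of the 40 members, 28 have a window, 33 windows in all. GGGCGG was found in 63.6% of the members' windows and 35.7% of all 32851 windows, CAGAC in 60.6% and 49.6%, CCAAT in 33.3% and 37.4%, and TATAAA in 9.09% and 13.6%. These are matches of letters within a short window and no measure of binding.

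Lum, lumican, lies next to Dcn with no protein-coding gene between them and belongs to the same proteoglycan family. It had 3.45, 3.49 and 3.09 CPM at 21 months, against 2.37, 3.26, 2.02 and 1.79 CPM at 3 months, and its log2 fold change of 0.44 did not pass the test (edgeR adjusted p = 0.344). Decorin was far more abundant: the TPM ratio of Dcn to Lum was 33.7 ± 0.433 at 21 months and 30.1 ± 4.50 at 3 months. Against the collagen it binds, the balance differed more. The TPM ratio of Dcn to Col3a1 was 13.5, 9.93 and 13.9 at 21 months, against 3.64, 5.59, 8.80 and 5.23 at 3 months. The ratio of Bgn to Col3a1 was 7.89, 9.88 and 10.0 at 21 months, against 2.89, 3.80, 6.24 and 4.27 at 3 months. Neither ratio overlapped between ages; both were formed after the genes' values were seen and carry no test.

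The abundant glycoproteins did not pass the test. Fn1 had 1134, 1628 and 1565 CPM at 21 months, against 1475, 1510, 1416 and 1629 CPM at 3 months (log2 fold change -0.06, 95% interval -0.33 to 0.20, edgeR adjusted p = 0.798). Ecm1, which is known in mouse liver to hold latent TGF-beta inactive, had 80.9, 145 and 109 CPM at 21 months, against 93.8, 96.5, 88.4 and 94.8 CPM at 3 months. The 3-month values lay within 10 CPM of each other while the 21-month values spread on both sides of them, and the log2 fold change was 0.25 (adjusted p = 0.344). Without replicate 1 at 21 months Ecm1 passed (0.44, adjusted p = 0.0122), and without replicate 2 at 21 months the estimate was 0.038 (adjusted p = 0.881). Sparc, a collagen-binding glycoprotein of remodelling tissue, averaged 39.4 ± 8.40 CPM at 21 months and 40.8 ± 2.71 CPM at 3 months (-0.06, adjusted p = 0.836). Fbln5, an organiser of elastic fibres, averaged 3.69 ± 0.319 CPM at 21 months and 4.22 ± 1.39 CPM at 3 months (-0.25, 0.610). Fbln1, a fibulin of portal and vessel-wall matrix, had 6, 7 and 1 counts at 21 months, against 19, 10, 0 and 5 at 3 months, with replicate 1 at 3 months again the highest.

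**Figure D4:**
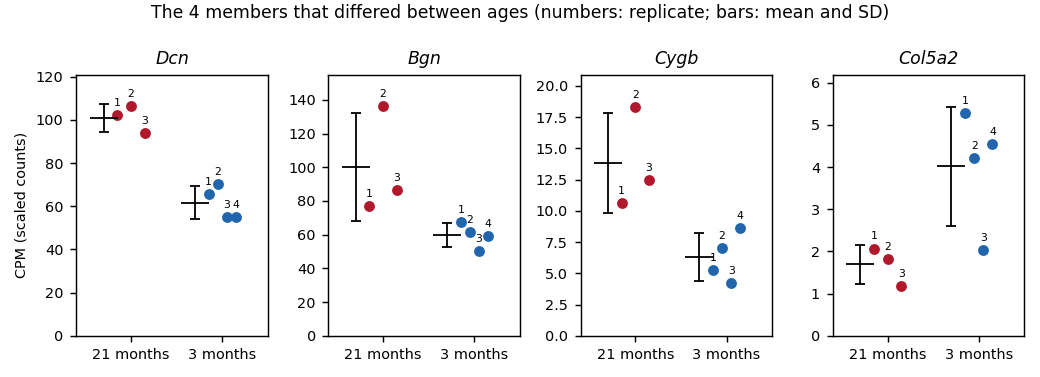
CPM of Dcn, Bgn, Cygb and Col5a2 in each library (numbers: replicate), 21 months left of 3 months, with bars for mean and SD and axes that start at 0. Dcn, Bgn and Cygb have no 21-month library below a 3-month library; Col5a2 overlaps through replicate 3 at 3 months.

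Genes of the resting stellate cell were higher in 6 of 7 estimates, and 1 of the 7, Cygb, passed the test (14.3%, against 11.3% of all genes). Their median log2 fold change was 0.15, against -0.00 for all genes. Cygb, cytoglobin, is a haem protein of stellate cells that scavenges oxygen radicals and nitric oxide, and mice without it are prone to liver fibrosis. It had 10.6, 18.3 and 12.5 CPM at 21 months, against 5.29, 7.04, 4.25 and 8.60 CPM at 3 months, with no overlap. Cygb was 2.13-fold higher at 21 months (log2 fold change 1.09, SE 0.23, 95% interval 0.58 to 1.59, edgeR adjusted p = 0.0105). The call held without any 1 library, also without replicate 2 at 21 months (0.86, adjusted p = 0.0259), and was lost with the shortfall of effective length as a covariate (1.05, adjusted p = 0.105). Cygb overlaps Prcd in the GRCm38.p6 gene table; whether the authors' counting used strand is not given in the sources used here.

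Lrat, the enzyme that esterifies retinol for storage, had 11.2, 18.4 and 14.6 CPM at 21 months, against 7.12, 8.67, 15.8 and 8.28 CPM at 3 months. A single 3-month library, replicate 3, lay inside the 21-month range. The log2 fold change was 0.58 (95% interval 0.02 to 1.15, unadjusted p = 0.0446, edgeR adjusted p = 0.176), and without that library it was 0.85 (adjusted p = 0.0216). Lrat was not called with any other library left out, and without replicate 2 at 21 months the estimate was 0.42 (adjusted p = 0.365). Reln, reelin, a secreted glycoprotein that marks stellate cells in liver, spread over 31.1, 78.1 and 67.1 CPM at 21 months, against 48.7, 66.6, 51.4 and 29.2 CPM at 3 months (0.24, adjusted p = 0.770). Each age spanned more than a 2-fold range, wider than the difference between ages. Colec11, a collectin of the lectin pathway of complement, averaged 23.1 ± 4.05 CPM at 21 months and 20.8 ± 3.15 CPM at 3 months (0.15, 0.560). Ngfr, the low-affinity neurotrophin receptor, averaged 6.70 ± 3.64 CPM at 21 months and 5.81 ± 1.40 CPM at 3 months (0.14, 0.830). Des, the muscle-type filament desmin, averaged 4.35 ± 1.20 CPM at 21 months and 4.02 ± 0.642 CPM at 3 months (0.08, 0.878). Hgf, the hepatocyte growth factor that stellate cells send to their neighbours, was the 1 gene with a negative estimate, at 3.95 ± 1.20 CPM at 21 months and 4.26 ± 0.937 CPM at 3 months (-0.13, 0.809).

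Relative to Colec11, Cygb was higher at 21 months in every library: the TPM ratio was 0.31, 0.39 and 0.34 at 21 months, against 0.15, 0.20, 0.10 and 0.29 at 3 months. The nearest libraries, at 0.31 and 0.29, were close. This ratio was formed after the values were seen, carries no test and rests on the same Cygb values as the call. Of 28 further stellate cell markers that are not members, 25 were tested, and 7 were higher and 1 lower with edgeR (32%, against 11.3% of all genes). The list's median log2 fold change was 0.25, with 18 estimates above 0 and 7 below, the lowest at -1.05. DESeq2 called 4 of the 25 and limma voom 6, against 1133 and 1272 of all 11251 genes. Which of the edgeR calls those tools share is not given. The called genes named here are all rises, and the 1 lower call is not among them. Nt5e, an ectoenzyme that makes adenosine, averaged 12.2 ± 4.06 CPM at 21 months and 6.54 ± 1.06 CPM at 3 months (0.90, adjusted p = 0.0166). Ntn1, netrin 1, averaged 18.9 ± 3.79 CPM at 21 months and 12.7 ± 1.25 CPM at 3 months (0.55, 0.0339). The list summed to 1103, 1108 and 1102 TPM at 21 months, against 676, 893, 831 and 694 TPM at 3 months. Most of that level came from Hsd11b1, the cortisone reductase, at 606 TPM at 21 months and 411 TPM at 3 months, from the chemokine Cxcl12 (276 and 196 TPM) and from the metalloreductase Steap4 (44.0 and 30.5 TPM). Hsd11b1 and Steap4, both among the 7 called higher (edgeR adjusted p = 0.0102 and 0.0132), are also made by hepatocytes. Neither the sum nor the share called is therefore a measure of stellate cells alone.

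Genes of the activated state did not pass the test: 0 of 6 were called by edgeR, DESeq2 or limma voom, and 0 had an unadjusted p under 0.05. Of all genes tested, edgeR called 11.3%, so 0 of so few genes is near that share. Their median log2 fold change was -0.05. Acta2, smooth muscle actin and the usual marker of myofibroblasts, had 3.55, 4.33 and 1.07 CPM at 21 months, against 8.03, 1.89, 0.405 and 2.60 CPM at 3 months. The highest library exceeded the lowest 4.05-fold at 21 months and 19.8-fold at 3 months, and the log2 fold change of -0.07 had a 95% interval of -2.06 to 1.92 (edgeR adjusted p = 0.973). As a fold, that interval runs over 0.239 to 3.77, so even a sizeable change was not detectable with this spread between libraries. Tagln, an actin-binding protein of contractile cells, had 6.996, 6.15 and 2.26 CPM at 21 months, against 7.30, 7.98, 4.45 and 5.52 CPM at 3 months (-0.32, adjusted p = 0.590). Both genes also belong to vascular smooth muscle, whose other markers summed to 34.3, 45.4 and 39.0 TPM at 21 months, against 38.8, 39.2, 35.3 and 33.8 TPM at 3 months. Of those 12 markers 6 were tested and 0 were called by the 3 tools, against 11.3% of all genes with edgeR. Of the 6, 1 had an unadjusted p under 0.05 and 1 was called by limma voom with sample weights. Casq2 was at 0 in every library.

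The PDGF receptors, which receive the main signal for stellate cell growth, had higher estimates at 21 months. Pdgfrb had 10.3, 14.2 and 10.5 CPM at 21 months, against 7.66, 9.78, 8.90 and 9.90 CPM at 3 months. The ages did not overlap, by a margin of under 1 CPM, and the difference did not pass the test (log2 fold change 0.35, 95% interval -0.01 to 0.71, edgeR adjusted p = 0.208). Pdgfra, the receptor more typical of fibroblasts, averaged 4.98 ± 1.37 CPM at 21 months and 3.71 ± 0.855 CPM at 3 months (0.38, 0.382). Vim, the filament protein of mesenchymal cells, averaged 19.8 ± 5.84 CPM at 21 months and 19.9 ± 6.26 CPM at 3 months (-0.04, interval -0.65 to 0.57, adjusted p = 0.949). Tgfb1, the cytokine that drives collagen synthesis, had 5.91, 14.9 and 9.28 CPM at 21 months, against 11.5, 11.8, 9.51 and 7.79 CPM at 3 months (-0.05, interval -0.66 to 0.56, adjusted p = 0.934). Its highest and lowest libraries were both of 21 months, replicates 2 and 1, the same libraries in which macrophage markers were highest and lowest. Among the 21-month libraries, marker sums of endothelial cells, portal fibroblasts and mesothelium, vascular smooth muscle, lymphocytes and bile duct cells had that order too. The order is therefore not particular to macrophages.

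Of the enzymes and inhibitors of matrix crosslinking and turnover, 0 of the 4 tested passed with edgeR, against 11.3% of all genes. DESeq2 and limma voom also called 0, and 0 had an unadjusted p under 0.05. Timp3, an inhibitor of metalloproteinases that binds to matrix, averaged 20.9 ± 2.04 CPM at 21 months and 18.4 ± 0.787 CPM at 3 months (log2 fold change 0.18, edgeR adjusted p = 0.378). Timp2, which both inhibits and helps to activate Mmp2, averaged 14.3 ± 4.66 CPM at 21 months and 11.7 ± 2.37 CPM at 3 months (0.25, 0.514). Mmp2, a gelatinase of fibroblasts and stellate cells, averaged 2.08 ± 0.472 CPM at 21 months and 2.25 ± 0.733 CPM at 3 months (-0.09, 0.906). Loxl1, which crosslinks elastin and collagen, averaged 1.69 ± 0.958 CPM at 21 months and 1.75 ± 0.381 CPM at 3 months (-0.14, 0.867). Timp1, a textbook sign of active fibrosis, was at or near 0 at both ages, with 0, 1 and 1 counts at 21 months, against 1, 0, 0 and 0 at 3 months. Lox, the main crosslinking enzyme of collagen, had 2, 2 and 0 counts at 21 months, against 0, 4, 0 and 1 at 3 months, all but 1 library at or below the floor of 3 counts.

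Beyond the members, 6 lists of related genes held changes in single genes. The share called by edgeR is given for each and stands against 11.3% of all genes. How these single calls depend on the shortfall covariate or on any 1 library is not given. Among 21 collagen processing enzymes and chaperones tested, 1 rose and 2 fell (14.3% called, median log2 fold change -0.01). Loxl4, a lysyl oxidase, had 11.6, 13.3 and 12.6 CPM at 21 months, against 7.12, 6.78, 5.26 and 3.90 CPM at 3 months (1.09, edgeR adjusted p = 0.00268). Ppib, the prolyl isomerase of the collagen folding complex, averaged 137 ± 9.06 CPM at 21 months and 180 ± 20.4 CPM at 3 months (-0.40, adjusted p = 0.0260). Lepre1, the prolyl 3-hydroxylase of that complex, fell with it, to 15.3 ± 0.378 CPM at 21 months, against 23.0 ± 5.19 CPM at 3 months (-0.60, 0.0267). Among 24 TGF-beta signalling genes tested, 1 rose and 0 fell (4.17%): Smurf1, a ubiquitin ligase that removes SMADs and receptors, averaged 22.9 ± 3.31 CPM at 21 months and 16.2 ± 1.27 CPM at 3 months (0.50, 0.0267). Among 19 fibrogenic ligands and receptors tested, 2 rose and 0 fell (10.5%). Agtr1a, the angiotensin receptor, averaged 45.2 ± 3.94 CPM at 21 months and 28.7 ± 3.23 CPM at 3 months (0.65, 0.00301). Gas6, the ligand of the AXL receptor, averaged 43.7 ± 4.28 CPM at 21 months and 29.5 ± 5.49 CPM at 3 months (0.57, 0.0166). The medians of these lists were 0.09 and 0.10, near 0 as for all genes.

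Of 12 matrix proteases and inhibitors tested, 2 rose and 1 fell (25.0%, median log2 fold change 0.08). Reck, a membrane-anchored inhibitor of metalloproteinases, had 4.93, 5.87 and 5.23 CPM at 21 months, against 2.74, 2.83, 2.83 and 2.11 CPM at 3 months (1.01, edgeR adjusted p = 0.0118). The lysosomal proteases moved apart: Ctsb averaged 544 ± 51.9 CPM at 21 months and 436 ± 17.003 CPM at 3 months (0.32, 0.0456), and Ctsl averaged 209 ± 26.0 CPM at 21 months and 283 ± 16.6 CPM at 3 months (-0.44, 0.0136). Of 31 other matrix proteins tested, 1 rose and 2 fell (9.68%, median -0.01). DESeq2 called 2 of the 31 and limma voom 3, against 1133 and 1272 of all 11251 genes. Efemp1, a fibulin, averaged 7.88 ± 1.34 CPM at 21 months and 4.10 ± 0.917 CPM at 3 months (0.92, 0.0146). Col27a1, a fibrillar collagen best known from cartilage, averaged 37.9 ± 8.14 CPM at 21 months and 62.3 ± 13.0 CPM at 3 months (-0.73, 0.0287). Lamb2, a laminin beta chain, averaged 5.32 ± 0.0941 CPM at 21 months and 8.35 ± 1.30 CPM at 3 months (-0.65, 0.0340). Of 20 retinoid handling genes tested, 3 rose and 0 fell (15%, median 0.14). Aldh1a1, which makes retinoic acid, had 1537, 961 and 1132 CPM at 21 months, against 842, 720, 796 and 761 CPM at 3 months (0.63, 0.00936). Dhrs3, which turns retinal back into retinol, averaged 179 ± 8.70 CPM at 21 months and 129 ± 9.65 CPM at 3 months (0.46, 0.00597). Rdh16, a retinol dehydrogenase, averaged 106 ± 27.6 CPM at 21 months and 50.5 ± 12.5 CPM at 3 months (1.08, 0.0255). Stra6 and Crabp2, a retinol-binding protein receptor and a retinoic acid carrier, were at 0 in every library. Hepatocytes hold part of this pathway too, so these values are not those of stellate cells alone.

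Markers of the remaining cell types gave 1 edgeR call or fewer in each list, apart from hepatocytes. The share called was 4.35% for endothelial, 16.7% for bile duct, 25% for lymphocyte and 23.5% for hepatocyte markers, against 11.3% of all genes. DESeq2 called 2 endothelial, 2 lymphocyte and 6 hepatocyte markers, and 1133 of all 11251 genes. Of 23 endothelial markers tested, Lyve1, the hyaluronan receptor of sinusoids, fell to 1.98 ± 0.673 CPM at 21 months, against 5.16 ± 2.86 CPM at 3 months (log2 fold change -1.49, edgeR adjusted p = 0.0359), and the list's median was -0.11. Of 17 macrophage markers tested, 0 were called by edgeR, DESeq2 or limma voom, with 0 at an unadjusted p under 0.05 (median 0.05). Of 6 bile duct markers tested, Sox9 fell to 10.1 ± 0.248 CPM at 21 months, against 16.7 ± 3.30 CPM at 3 months (-0.74, 0.0102), with a median of -0.42 over the list. The bile duct list summed to 46.6, 50.7 and 50.5 TPM at 21 months, against 50.1, 57.9, 47.4 and 56.1 TPM at 3 months. Of 4 lymphocyte markers tested, Igj, the joining chain of secreted antibodies, rose to 4.93, 23.5 and 3.81 CPM at 21 months, against 0.547, 0.257, 0 and 0 CPM at 3 months (adjusted p = 0.0426); limma voom, with or without sample weights, called 0 of the 4. The lymphocyte list summed to 14.96, 63.2 and 22.6 TPM at 21 months, against 10.2, 10.8, 9.80 and 8.11 TPM at 3 months, highest in the library where the members were highest. Of 17 hepatocyte markers 1 rose (Alb, log2 fold change 0.52, edgeR adjusted p = 0.0275) and 3 fell, with a median of -0.08. Those that fell were Fga (-0.48, 0.00976), Apoa1 (-0.54, 0.0176) and Fgg (-0.40, 0.0196). Of 5 red cell markers tested, 0 were called by edgeR (1 by DESeq2, 0 by limma voom, 1 at an unadjusted p under 0.05). The part of any of these in the members' values was not tested.

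**Figure D5:**
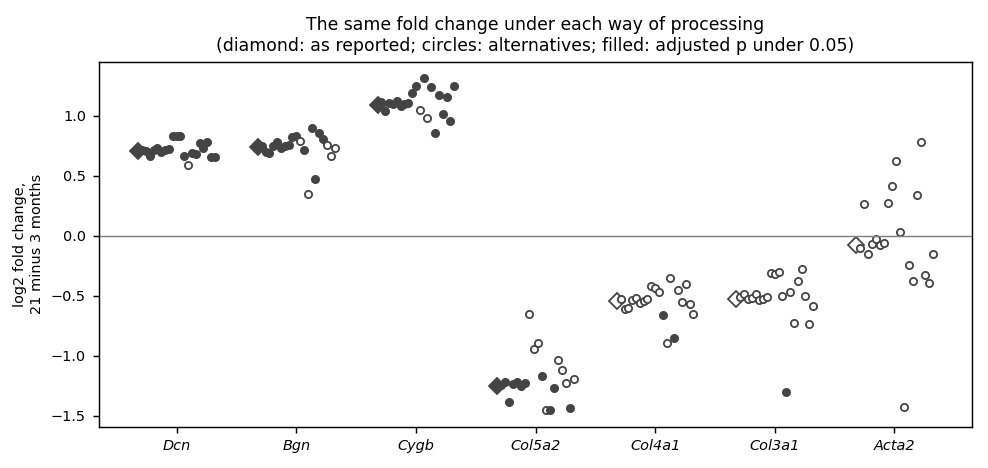
log2 fold change (21 months minus 3 months) of 7 members as reported (diamond) and under up to 20 alternatives (circles), filled at an adjusted p under 0.05. Dcn, Bgn and Cygb stay above 0 and Col5a2, Col4a1 and Col3a1 below 0 throughout, and Acta2 lies on both sides of 0. Calls of Dcn, Bgn, Cygb and Col5a2 are lost in some alternatives. Col4a1 and Col3a1, without a call as reported, gain a call in 2 and 1 alternatives.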

How the data were processed

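Total RNA was extracted with Trizol and RNeasy columns, enriched for mRNA and made into strand-specific libraries by PCR without molecular identifiers, per the labels' protocols. TopHat, RSEM and edgeR are named in the submitters' processing notes, with mouse build mm9; the role and version of each, and whether reads were counted by strand, were not given in the sources used here. Without that, genes that overlap others in the GRCm38.p6 table (Cygb with Prcd, Tagln with Pcsk7, Timp1 with Syn1, Timp3 with Syn3, Col4a1 with Col4a2) are uncertain. The authors deposited 1 table per library with expected counts per gene, so named per the file headers (estimates that need not be whole, as RSEM writes them); 86.5% of the values are whole. TPM values, scaled by the authors for length and depth, stand in the same tables. The FPKM column deposited with them was left aside. The shortfall of effective length is each library's median of gene length minus effective length, both per the file headers; it was 35.4, 30.9 and 21.4 bases at 21 months and 36.9, 38.8, 35.7 and 34.4 bases at 3 months.

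Expected counts were rounded, filtered over the whole table by filterByExpr (minimum count 10, minimum total 15), scaled by TMM and tested with edgeR 4.0.16's robust quasi-likelihood test in R 4.3.3, 21 against 3 months, with Benjamini-Hochberg adjustment over 11251 genes; changes were called at 0.05. Adjusted p-values of single genes are from that test unless another tool is named. DESeq2 1.42.0 and limma 3.58.1 were alternatives, and the code was tested on simulated data. Within-age pairs of libraries differed by more than sampling noise (chi-square per degree of freedom 4.37 to 21.4), so none was counted as 1 library deposited again, which leaves the origin of each sample unknown. The reported test used age group alone and did not pair samples, and a block on replicate number was an alternative only. Same-numbered libraries deviated together (Pearson r of log2(CPM + 0.5) deviations across genes 0.11, 0.18 and 0.11), which is the evidence for a pairing. The evidence is weak: replicate 1 at 21 months and replicate 4 at 3 months correlated at 0.16, replicate 3 and replicate 2 at 0.095, and the labels name no shared litter or day. Ratios and sums are of TPM. Intervals cover counting and replicate error in these libraries only, and floors are a fixed 3 counts scaled to CPM.

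The members and gene lists were chosen with earlier results of these data known. Every member is named; of each other list, up to 4 genes with the smallest adjusted p under 0.05 and, of marker lists, the 3 with the highest mean TPM could be named. The ratios were chosen after the values were seen.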

Additional observations from a re-analysis of the deposited data

Results flagged for a closer look

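Among the 37 sets of 4 libraries looked at (each tested member at 3 months), 2 held a library far from the others, by a gap over the group's range above Dixon's critical value. Chance flags about 1 in 20 such sets. Lamb1 had 8.90 CPM in replicate 3 at 3 months, where the other libraries of that age had 7.47 to 7.66 CPM (gap over range 0.861). Timp3 had 17.2 CPM in replicate 4 at 3 months, where the others had 18.6 to 18.9 CPM (0.841). The 3 libraries at 21 months were too few for this rule.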

How the results depend on the processing

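Over 20 alternatives (other tools, scalings and filters, TPM, the shortfall covariate, the replicate block and each library left out), the 37 tested members gave 727 comparisons: 639 kept direction and call, 66 changed sign, 16 lost and 6 gained a call. Dcn, Bgn, Cygb and Col5a2 kept their direction in every alternative that gave them a value. The replicate block together with the shortfall covariate was added after seeing the data and leaves 1 residual degree of freedom. The causes of these shifts were not tested.

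Members called numbered 4 and were 1 with the shortfall as covariate (Dcn), 1 with block and covariate (Col3a1, log2 fold change -1.30, adjusted p = 0.0116) and 2 to 6 with a library left out. The replicate block gave 5, adding Col4a1 to the members lower (2) and 1 to the basement membrane group, and changed no other member's call. Members higher numbered 1 with the covariate, 0 with block and covariate and 2 to 4 with a library left out. Members lower, and fibrillar collagens lower, numbered 0 with a filter at a mean of 5 CPM (which removes Col5a2), 0 on either TPM scale and 0 with the covariate; with a library left out they numbered 0 to 3 and 0 to 1. Proteoglycans and glycoproteins higher numbered 1 with the covariate, 0 with block and covariate and 1 to 3 with a library left out; quiescent stellate cell genes higher 0, 0 and 1 to 2; basement membrane genes lower 0 to 2 with a library left out.

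Over all genes, 1274 were called (615 higher, 659 lower). With voom sample weights there were 2101 (983, 1118), with the covariate 332 (179, 153), with block and covariate 94 (47, 47), and with a library left out 580 to 1642 (330 to 742, 250 to 900). On the TPM scales with a pseudocount of 0.5 or 0.1, 279 and 276 were lower and 74.9% and 74.3% of calls were higher, against 48.3%, with the median of all genes at 0.11 and 0.12.

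Log2 fold changes that changed sign were all of members without a call. On TPM + 0.5 they were Col6a1 0.073, Col14a1 0.085, Sparc 0.053, Fn1 0.044, Hgf 5.5e-05, Acta2 0.27, Vim 0.13, Tgfb1 0.030, Loxl1 0.0012 and Mmp2 0.023, of which only those of Acta2 and Vim exceed the shift of all genes. On TPM + 0.1 they were Col6a1 0.078, Col14a1 0.088, Sparc 0.053, Fbln5 0.0011, Fn1 0.044, Acta2 0.41, Vim 0.13, Tgfb1 0.028 and Mmp2 0.036. With the covariate they were Col6a1 0.069, Col14a1 0.14, Acta2 0.62, Tagln 0.42 and Vim 0.20. With block and covariate they were Col6a1 0.060, Ecm1 -0.085, Reln -0.63, Pdgfra -0.33, Tagln 0.081, Loxl1 0.15 and Timp2 -0.35. With voom they were Ngfr -0.026 and Acta2 0.27, with its sample weights Fn1 0.031, Des -0.059 and Ngfr -0.095, and with the replicate block Acta2 0.034 and Loxl1 0.011. With a library left out, values ranged over -0.14 to 0.087 for Col6a1, -0.29 to 0.13 for Col14a1, -0.21 to 0.072 for Sparc, -0.14 to 0.081 for Fn1, -0.13 to 0.22 for Des, -0.32 to 0.10 for Hgf, -0.35 to 0.38 for Ngfr, -0.39 to 0.78 for Acta2, -0.66 to 0.050 for Tagln, -0.28 to 0.12 for Vim, -0.43 to 0.22 for Tgfb1, -0.65 to 0.11 for Loxl1, -0.24 to 0.093 for Mmp2 and -0.0079 to 0.44 for Timp2. Low counts kept Fbln1, Lox and Timp1 from being tested. Acta2, with 76 counts at 21 months and 84 at 3 months, had a wider SE (0.83) than Mmp2 with 52 and 60 (0.34), beside its 19.8-fold range at 3 months.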
